A study of Homo sapiens with 6 samples.

Results

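The genes described here are 10 members of TGF-beta, activin and BMP signalling, chosen by name: the ligand genes TGFB1, TGFB2, TGFB3, INHBA, INHBB and BMP4, the secreted antagonist gene FST, the intracellular inhibitor gene SMAD7, and the response genes ID1 and ID3. Of the 36459 gene symbols in the gene table, 9 are these members, and the other, TGFB1, had no row under its symbol and was read from its transcripts by identifier. RNA was sequenced from PC9, a human lung cancer line (NSCLC) that depends on the EGFR kinase, in 3 libraries of parental cells without drug and 3 libraries of persister cells, the cells remaining after 6 days in 15 µM of the EGFR inhibitor erlotinib. The parental libraries came from 3 independent cultures and the persister libraries were pooled from 9 treated cultures, so the spread between persister libraries is a spread between pools. All cells are of 1 line, and a change in each cell cannot be told apart from survival of a subset of the cells. In bulk RNA, fewer cells of a type and less RNA per cell also cannot be told apart.

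Ligands of this family bind pairs of type I and type II receptor kinases at the cell surface. TGF-beta and activin receptors phosphorylate SMAD2 and SMAD3, BMP receptors phosphorylate SMAD1, SMAD5 and SMAD9, and both sets act on transcription together with SMAD4. The family is known for growth arrest in epithelium, for matrix production and for epithelial-mesenchymal transition. Activins are dimers of inhibin beta subunits and are bound by follistatin, SMAD7 blocks the receptors as a feedback inhibitor, and the ID proteins are dominant-negative helix-loop-helix factors whose genes are classic BMP responses.

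In persister cells the ligand genes TGFB2, INHBA and INHBB rose, TGFB1 and BMP4 fell, and FST fell at very low levels. SMAD7 rose, and the paralogs ID1 and ID3 went in opposite directions. Of the 9 members tested in the gene table, 5 were higher, 3 were lower and 1, TGFB3, was not called by edgeR's quasi-likelihood test at a Benjamini-Hochberg adjusted p under 0.01. Calls were common in this contrast: 56.8% of the 14626 genes tested passed, 28.7% higher and 28.1% lower, so the members' count says little by itself and the sizes of their changes carry the description. The median log2 fold change was 0.48 over the 9 members and -0.01 over all genes tested. Parental and persister libraries did not overlap for 8 of the 9 members, against 71.3% of all genes tested.

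Gene counts summed to between 29476725 and 34893782 in a library, and libraries of one group differed by more than sampling noise, so all 6 were kept as replicates. Levels are given as CPM, counts scaled to a common library total after TMM normalization. Of the 6 carcinoma epithelium markers none was below 1 CPM in every library, and their summed level was 6200 to 6574 CPM in parental and 4230 to 4379 CPM in persister libraries. KRT8, KRT18 and KRT19 carried that fall, while CDH1 rose from 207 ± 1.91 to 314 ± 1.07 CPM and EGFR from 618 ± 25.7 to 876 ± 25.1 CPM (SD, n = 3 each, edgeR adjusted p = 4.34e-08 and 1e-06). The 7 fibroblast markers summed to 10.5 to 11.02 CPM in parental and 27.4 to 30.8 CPM in persister libraries, with 5 of them below 1 CPM in every library, COL3A1 at 0 and most of the sum in COL1A1. The 4 immune markers summed to 74.8 to 76.7 CPM and then to 19.6 to 22.8 CPM, nearly all of it CD68, with CD3E at 0. The 4 endothelial markers summed to 8.19 to 8.88 CPM and then to 3.60 to 4.03 CPM. The part of these shifts in the members' changes was not tested.

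**Figure D1:**
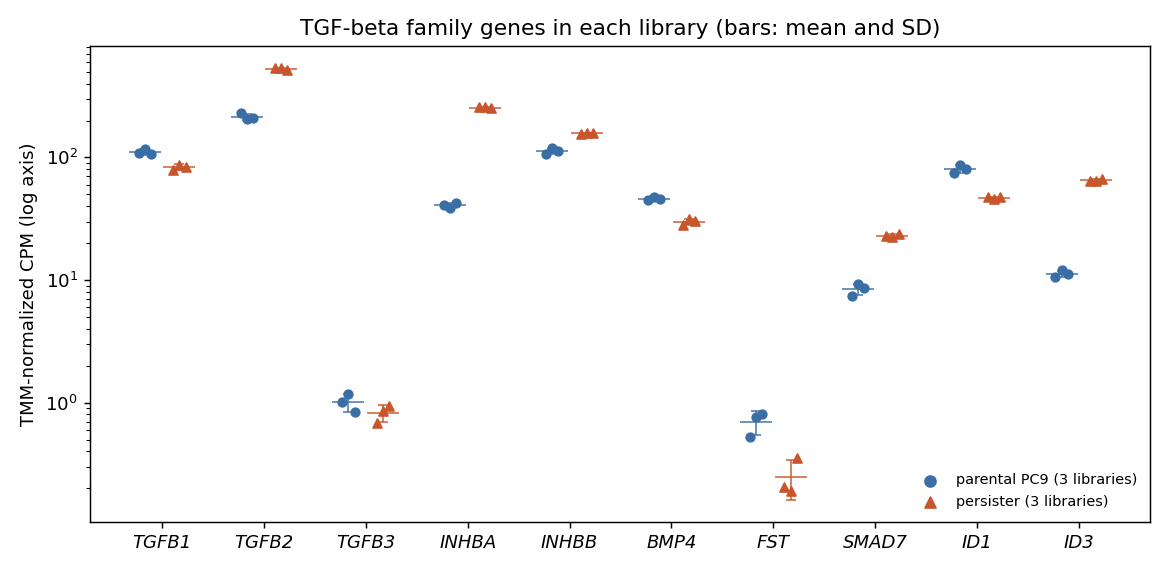
Level of each of the 10 genes in each library as TMM-normalized CPM on a log axis, with blue circles for the 3 parental PC9 libraries, orange triangles for the 3 persister libraries, and bars for the mean and SD. The groups are apart for 9 genes, by the widest gaps for INHBA and ID3, and overlap for TGFB3, which lies near 1 CPM in both groups.

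Because ID1 and ID3 are paralogs that moved in opposite directions, and SMAD7 is a direct feedback gene, the 250 bases before their RefSeq start sites are shown to let the letters be compared beside the values. They were read from RefSeq on GRCh38.p14 at chr20:31605039-31605288 on the plus strand for ID1, chr1:23559502-23559751 on the minus strand for ID3 and chr18:48950966-48951215 on the minus strand for the most upstream of the SMAD7 starts. Capitals mark CAGAC or its reverse complement GTCTG, known as the SMAD box, and each sequence runs 5′ to 3′ towards the gene.
ID1: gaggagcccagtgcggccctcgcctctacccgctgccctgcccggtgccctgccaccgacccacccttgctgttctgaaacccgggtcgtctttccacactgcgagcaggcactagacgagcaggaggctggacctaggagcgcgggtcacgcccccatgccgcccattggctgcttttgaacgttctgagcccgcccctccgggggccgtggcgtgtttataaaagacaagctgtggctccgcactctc
ID3: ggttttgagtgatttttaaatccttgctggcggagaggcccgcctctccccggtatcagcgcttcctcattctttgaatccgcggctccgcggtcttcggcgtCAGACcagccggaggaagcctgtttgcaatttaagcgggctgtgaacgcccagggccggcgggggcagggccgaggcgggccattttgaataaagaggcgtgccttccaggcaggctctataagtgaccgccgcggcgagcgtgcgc
SMAD7: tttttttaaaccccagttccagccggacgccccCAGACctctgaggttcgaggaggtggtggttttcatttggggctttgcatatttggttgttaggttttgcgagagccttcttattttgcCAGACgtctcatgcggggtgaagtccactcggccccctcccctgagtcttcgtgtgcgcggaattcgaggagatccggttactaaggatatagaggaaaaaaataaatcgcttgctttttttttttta

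Windows of this length were found for all 10 members and searched on both strands for CAGAC, for the palindrome GTCTAGAC, for the GC-rich element GGCGCC and for the AP-1 element TGACTCA, and no match overlapped another. The ID1 window held none of the 4 motifs. The ID3 window held 1 CAGAC, whose first base is 147 bases before the start site, and the SMAD7 window shown held 2, at 217 and 128 bases before it. The motif was also in members that were lower or not called: in 2 of the BMP4 windows, at 181 and 46 bases, and in a TGFB3 window at 245 and 133, as well as in TGFB2 at 243 and 53. Whether its presence went with the direction of change was not tested. The SMAD box is short, and 38.0% of 35116 RefSeq promoter windows hold it. GGCGCC, in 16.4% of windows, was found in the INHBB window and in the first BMP4 window. GTCTAGAC, in 0.182%, and TGACTCA, in 4.2%, were in none of the members' windows. The INHBA window, ahead of the member that rose most, also held none of the 4. G+C content was 66.0% for ID1, 62.0% for ID3 and 48.0% for SMAD7. These matches describe letters in the windows only. Bases outside the windows, such as those further upstream, were not searched. A motif missing from a window is therefore not shown to be missing from the gene's regulatory sequence.

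Among the 3 TGF-beta ligand genes, TGFB2 rose, TGFB1 fell by less, and TGFB3 was barely expressed. TGFB2 (chr1:218345336-218444619, plus strand, GRCh38) stood at 229, 205 and 210.5 CPM in parental libraries and at 539, 534 and 519 CPM in persister libraries. All persister libraries were above all parental ones. The mean went from 215 ± 12.4 to 530.4 ± 10.4 CPM (SD, n = 3 each), a log2 fold change of 1.31 with a standard error (SE) of 0.0443 and an edgeR adjusted p of 1.29e-09. TGF-beta 2 is secreted in a latent complex and, unlike the other TGF-beta isoforms, binds the type II receptor well only with the help of betaglycan.

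TGFB1 encodes the isoform most often linked to fibrosis and immune suppression. Summed over its transcripts, TGFB1 (chr19:41301587-41353922, minus strand) was, on the library totals of the gene table, at 108, 118 and 108 CPM in parental libraries and at 79.3, 87.2 and 84.2 CPM in persister libraries. The groups did not overlap, and the fall was modest. The log2 fold change was -0.41 (SE 0.0511, edgeR adjusted p = 8.73e-05), in a fit of gene counts summed from transcripts that called 53.7% of 14431 genes, 26.7% as lower. One row of the gene table, which carries the clone name AC011462.1, held counts within 1 of this sum in every library, and its log2 fold change was also -0.41 in the fit of the gene table. TGFB3 (chr14) had only 35, 40 and 28 counts in parental and 20, 27 and 32 in persister libraries, at 1.01 ± 0.172 and 0.826 ± 0.129 CPM (SD, n = 3 each). Its groups overlapped. The fitted log2 change of -0.28 had an SE of 0.232 and an edgeR adjusted p of 0.309.

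The 2 activin subunit genes rose together but to different degrees. INHBA (chr7:41667168-41705834, minus strand), which encodes the subunit of activin A, was at 40.8, 38.9 and 42.7 CPM in parental libraries and at 257, 256 and 252 CPM in persister libraries. It had the largest change of the members, 6.25-fold, with a log2 fold change of 2.64, an SE of 0.0434 and an edgeR adjusted p of 8.94e-12, the 14th smallest p of all genes tested. INHBB (chr2:120346136-120351803, plus strand), the subunit of activin B, was at 107, 118 and 112 CPM and then at 155, 159 and 159 CPM. Every persister library lay above every parental one for both genes. The INHBB log2 fold change was 0.48 (SE 0.0429, edgeR adjusted p = 2.31e-06), a ratio of 1.40.

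BMP4, a ligand of the BMP branch, fell. BMP4 (chr14:53949736-53958761, minus strand) was at 45.2, 47.3 and 45.9 CPM in parental libraries and at 27.9, 31.2 and 30.3 CPM in persister libraries, again without overlap. The log2 fold change was -0.63, with an SE of 0.0519 and an edgeR adjusted p of 1.29e-06. FST (chr5:53480626-53487134, plus strand) encodes follistatin, which binds activins with high affinity and keeps them from their receptors. It had 18, 26 and 27 counts in parental libraries and 6, 6 and 12 in persister libraries, a mean of 0.696 ± 0.151 and 0.249 ± 0.0887 CPM (SD, n = 3 each). The groups were apart by few counts. The log2 fold change of -1.45 had an SE of 0.341 and an edgeR adjusted p of 0.00305. Without parental library 2 or 3, or without persister library 1 or 2, the edgeR adjusted p for FST was 0.0108, 0.0153, 0.0156 and 0.0171 in that order, above the limit.

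SMAD7, the inhibitory SMAD that competes for the receptors and brings ubiquitin ligases to them, rose from a low level. SMAD7 (chr18:48919853-48950965, minus strand) was at 7.47, 9.28 and 8.55 CPM in parental libraries and at 22.9, 22.5 and 23.6 CPM in persister libraries. The lowest persister library exceeded the highest parental one by more than the range within either group. The log2 fold change was 1.45 (SE 0.0775, edgeR adjusted p = 4.36e-08), a ratio of 2.73.

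The ID genes split. ID1 (chr20:31605283-31606515, plus strand) was at 75.1, 87.1 and 80.8 CPM in parental libraries and at 47.3, 46.1 and 47.9 CPM in persister libraries. ID3 (chr1:23557926-23559501, minus strand) was at 10.6, 11.96 and 11.2 CPM and then at 64.3, 64.5 and 66.9 CPM. For both genes the groups were apart, in opposite directions. The log2 fold change was -0.78 for ID1 (SE 0.0550, edgeR adjusted p = 3.64e-07) and 2.53 for ID3 (SE 0.0544, edgeR adjusted p = 5.46e-11), the 39th smallest p of all genes tested. The ID3 row sums transcripts that include a pair, ENST00000374561.6 and ENST00000634790.2, with identical counts in every library, such as 182 in parental library 1 and 920 in persister library 1. The second of them is not in GENCODE 44, so the ID3 level is shared between copies that the counting could not separate, while its ratio between groups is the same for each copy.

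**Figure D2:**
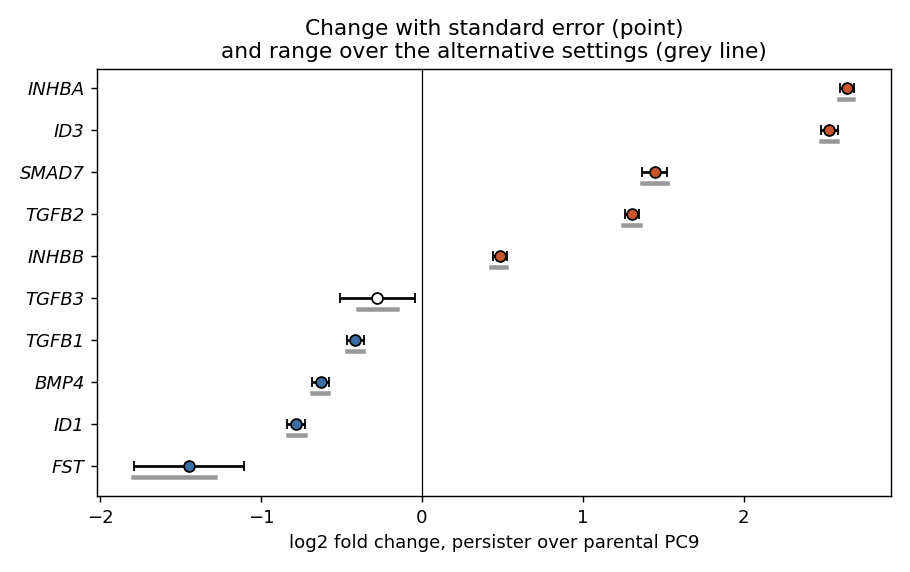
Log2 fold change of persister over parental PC9 for each of the 10 genes, with a point for the estimate, a bar for its SE and a grey line for the range over the alternative settings. Orange marks genes called higher, blue genes called lower and white TGFB3, which was not called, and no range crosses 0.

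Levels of different genes can be compared only per length, so CPM was divided by the mean transcript length in kilobases, weighted by each transcript's counts. In parental cells ID1 was highest at 80.2 ± 5.90 CPM per kilobase (SD, n = 3), followed by TGFB2 at 40.4 ± 2.33, TGFB1 at 40.03 ± 2.09 and INHBB at 35.1 ± 1.76. TGFB1 and TGFB2 overlapped there, at 38.8 to 42.4 and 38.6 to 43.1 CPM per kilobase over the libraries, so their order is not set. In persister cells TGFB2 was highest at 99.9 ± 1.96 CPM per kilobase, then ID3 at 68.8 ± 1.52, INHBB at 49.1 ± 0.747 and INHBA at 48.4 ± 0.554. INHBB and INHBA overlapped, and ID1 followed them at 46.6 ± 0.882 CPM per kilobase. In parental cells INHBA had been at 7.74 ± 0.364 CPM per kilobase, below BMP4 at 25.9 ± 0.597 and ID3 at 11.9 ± 0.699. SMAD7 stayed below all of these, at 2.76 ± 0.299 and 7.53 ± 0.192 CPM per kilobase, and FST and TGFB3 were under 0.4 CPM per kilobase in every library.

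Within a library these levels, all on 1 library total, give the make-up of each paralog group. TGFB2 made up 52.4%, 47.4% and 50.4% of the TGF-beta ligand mRNA per kilobase in parental libraries and 77.9%, 76.0% and 76.1% in persister libraries. TGFB1 accounted for nearly all the rest, 49.6% ± 2.44 and then 23.1% ± 1.04 (SD, n = 3 each). INHBA went from 18.8%, 16.6% and 18.8% of the INHBA and INHBB total to 50.3%, 49.6% and 49.1%, so that the subunit mRNAs were near parity in persister cells. ID3 went from 13.1%, 12.8% and 12.9% of the ID1 and ID3 total to 59.2%, 59.8% and 59.8%. No share overlapped between the groups. The shares are built from the gene levels given above, so they are not a further result. Of all genes tested, 71.3% had levels that did not overlap, and the rate for shares of other gene pairs was not computed. The exact two-sided permutation p of 0.1 for each share, the smallest that 3 against 3 libraries allow, follows from the lack of overlap.

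**Figure D3:**
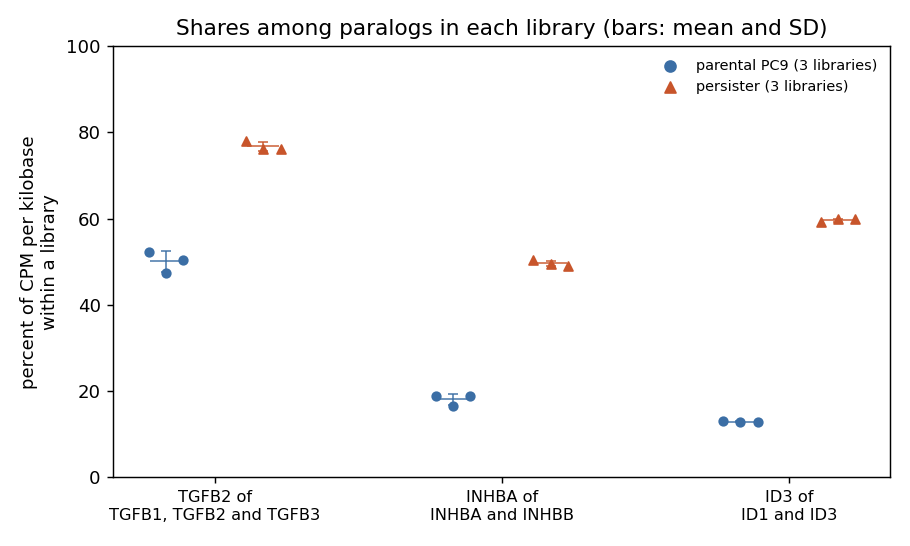
Percent of CPM per kilobase within each library taken by TGFB2 among the TGFB genes, by INHBA among INHBA and INHBB, and by ID3 among ID1 and ID3, with blue circles for the parental and orange triangles for the persister libraries and bars for the mean and SD. All 3 shares are higher in every persister library, and the ID3 share moves most, from near 13% to near 60%.

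The transcript table lists 48 transcripts of the members, of which 23 passed the filter on low counts. Of these 10 were higher and 3 lower in persister cells by the edgeR test over all transcripts, which called 7.8% of 54499 transcripts, 3.89% higher and 3.91% lower. With a replicate block 5 of the 23 were called and without parental library 3 there were 6. For most members the transcript with the most counts went the way of its gene: INHBA-201 had a log2 change of 2.64 (edgeR adjusted p = 1.2e-05), TGFB2-202 one of 1.24 (2.05e-05), ID3-201 one of 2.498 (3.49e-05) and SMAD7-201 one of 1.36 (0.00128). TGFB1-201, with 99.8% ± 0.124 of the parental TGFB1 counts (SD, n = 3), had one of -0.44 (0.00546) and ID1-202 one of -0.88 (0.000625). The largest transcripts of BMP4 and FST were not called although their genes were: BMP4-206 had a log2 change of -0.33 (edgeR adjusted p = 0.175), and FST-201, with all the parental FST counts, one of -2.11 (0.265) at 18, 26 and 27 counts in parental and 0, 4 and 12 in persister libraries. Estimates for transcripts that share most of their sequence depend on how reads were divided among them, and that uncertainty is in none of these tests.

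TGFB2-201 has 1 whole exon that TGFB2-202 does not. It holds 84 bases, a length that keeps the reading frame, at chr1:218363334-218363417 on the plus strand of GRCh38. TGFB2-202 in turn holds 899 bases at its 5′ end, chr1:218345336-218346234, that TGFB2-201 lacks, so reads of either stretch bear on how counts were divided between them. The exon is shown because it lengthens the ligand precursor, and it is in lower case throughout since no part of it is singled out.
TGFB2-201 exon: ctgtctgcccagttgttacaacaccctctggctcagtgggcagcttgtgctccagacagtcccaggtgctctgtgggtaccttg

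TGFB2-201 took 3.43%, 1.78% and 2.46% of the gene's counts in parental libraries and 4.84%, 4.42% and 3.57% in persister libraries. The groups were apart by little, and the exon-containing transcript stayed a minor one. Its log2 fold change was 2.01 with an SE of 0.297 (edgeR adjusted p = 0.0076), beside 1.24 and an SE of 0.0295 for TGFB2-202. INHBA-203 fell as a share of INHBA from 17.3% ± 1.14 to 14.8% ± 0.937 (SD, n = 3 each) while its level rose by a log2 change of 2.40 (edgeR adjusted p = 5.72e-05).

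For BMP4 and ID1, the lower genes with more than 1 sizeable transcript, the estimated falls differed in size. The difference between transcripts was not tested. BMP4-201 had a log2 change of -1.04 (edgeR adjusted p = 0.00788), and its share went from 38.3%, 52.8% and 44.4% to 34.3%, 36.0% and 33.6%. BMP4-206, which lacks 209 and 14 bases of BMP4-201 at chr14:53956550-53956758 and chr14:53956812-53956825, was the one with -0.33. The BMP4-206 share overlapped between the groups. ID1-202 was called lower, while ID1-201, which keeps 239 bases at chr20:31605814-31606052 that ID1-202 lacks, had a log2 change of -0.26 (edgeR adjusted p = 0.435). The ID1-201 share was 9.59%, 10.4% and 7.76% in parental and 15.4%, 12.7% and 12.7% in persister libraries. Of the 19 tested transcripts in members with 2 or more of them, 6 had shares that did not overlap between groups, and ID1-201 and ID1-202 are 1 difference seen from both sides. Over all 47250 such transcripts 22.5% did not overlap. INHBA-204 was also among the 6. Any share that does not overlap in 3 against 3 libraries has an exact permutation p of 0.1, the smallest possible. For TGFB2-201, INHBA-203, BMP4-201 and ID1-201 that value thus adds nothing to the lack of overlap.

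**Figure D4:**
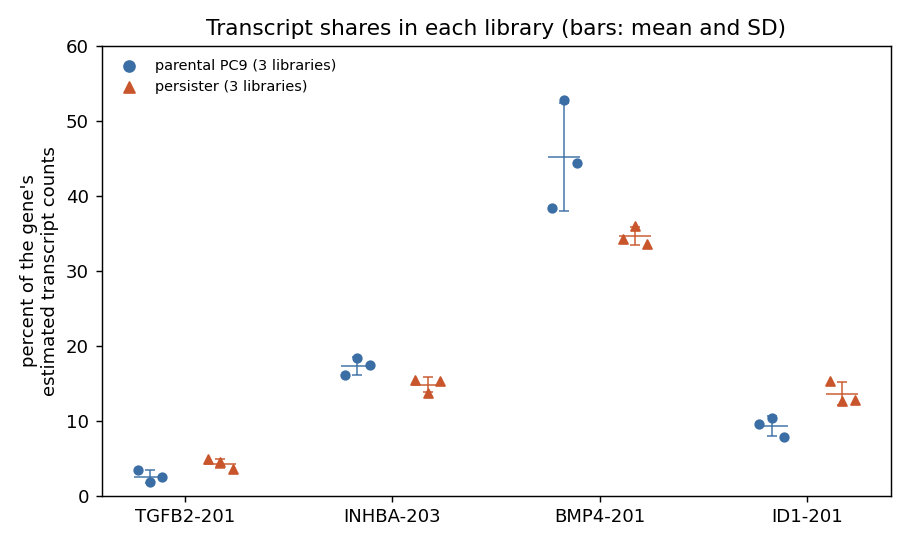
Percent of the gene's estimated transcript counts taken by TGFB2-201, INHBA-203, BMP4-201 and ID1-201 in each library, with blue circles for the parental and orange triangles for the persister libraries and bars for the mean and SD. TGFB2-201 and ID1-201 have larger shares in persister libraries, INHBA-203 and BMP4-201 smaller ones, and BMP4-201 varies most among parental libraries.

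The rest of the pathway was read from 8 lists, with each gene counted as called by the same edgeR fit. Together they hold 125 genes, of which 92 were tested, 37 were higher and 25 were lower, 67.4% called against 56.8% of all genes tested. Of all genes tested, 28.7% were higher and 28.1% lower. The lists share genes with each other, such as SMAD6, and they were not tested as sets. They were chosen with earlier results of these data known, so a called share above that of all genes is not independent evidence.

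Of 17 receptor and co-receptor genes 14 were tested, 5 were higher and 2 lower, with a median log2 fold change of 0.24. That is 50% called, against 56.8% of all genes tested. TGFBR1, the type I receptor of TGF-beta, was at 28.6, 26.0 and 29.8 CPM in parental and at 91.8, 79.0 and 86.3 CPM in persister libraries, without overlap (log2 fold change 1.61, SE 0.0662, edgeR adjusted p = 5.67e-09). Its partner TGFBR2 changed little, from 72.4 ± 1.30 to 63.5 ± 0.325 CPM (SD, n = 3 each), a log2 change of -0.19 (edgeR adjusted p = 0.00117). TGFBR3, which encodes betaglycan, rose by 0.72 on the log2 scale (edgeR adjusted p = 7.55e-05) from 3.64 ± 0.242 CPM, and BMPR2, the type II BMP receptor, by 0.87 (3.41e-07). ACVR2B, a type II activin receptor, fell by 0.58 (6.92e-05).

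The SMAD transducers had 16.7% called, the lowest share of the 8 lists. Of 6, none was higher and 1, SMAD3, was lower, at 161 ± 5.13 and 135 ± 3.42 CPM (SD, n = 3 each), a log2 change of -0.26 (edgeR adjusted p = 0.000148), and the median over the 6 was 0.02. At an adjusted p under 0.05 the count was 3 of 6, and it was 2 of 6 without parental library 1.

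Antagonists outside the cell or at its surface, other than FST, mostly rose where they were called. Of 17 genes 8 were tested, 4 were higher and 1 lower, 62.5% called against 56.8% of all genes, with a median of 0.63. FSTL3, a follistatin relative that also binds activins, was at 36.8, 47.2 and 44.6 CPM in parental and at 132, 135 and 142 CPM in persister libraries, a log2 change of 1.67 (SE 0.0761, edgeR adjusted p = 1.29e-08). FST and FSTL3 thus went in opposite directions in the main fit. FST had at most 27 counts per library, and its call was lost in some fits with 1 library left out. BAMBI, a pseudoreceptor that lacks a kinase, rose by 2.34 on the log2 scale (edgeR adjusted p = 1.63e-09) and FSTL1 by 1.03 (6.29e-10), while CHRDL1, a BMP antagonist, fell by 0.55 (4.63e-07).

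All 10 intracellular inhibitors on the list were tested, with 5 higher, 2 lower and a median of 0.12. The share called was 70%, against 56.8% of all genes tested. SMAD6, the inhibitory SMAD of the BMP branch, rose with SMAD7, from 7.14 ± 0.814 to 14.5 ± 0.338 CPM (SD, n = 3 each), a log2 change of 1.02 (edgeR adjusted p = 1.59e-06). PMEPA1, which sequesters receptor-regulated SMADs, rose from 178 to 382 CPM, a ratio of 2.14 (edgeR adjusted p = 3.97e-09) and SKIL, a SMAD co-repressor, rose by 0.55 on the log2 scale (1.75e-05). The co-repressors TGIF1 and TGIF2 each fell by 0.26 (0.000218 and 0.000977).

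Target genes moved in both directions. Of 24 TGF-beta and activin target genes 23 were tested, 11 were higher and 9 lower, 87% called, with a median of 0.55. FN1, encoding fibronectin, and TAGLN, encoding the actin-binding protein transgelin, rose by 2.97 and 2.99 on the log2 scale (edgeR adjusted p = 4.12e-12 and 6.65e-12). FN1 was at 56.6, 53.3 and 54.4 CPM in parental and at 439.6, 416 and 436 CPM in persister libraries, far apart. In contrast TGFBI, a matrix protein gene named for its induction by TGF-beta, fell by 0.75 (edgeR adjusted p = 2.19e-08), COL4A1, a basement membrane collagen gene, by 1.04 (3.48e-08) and BHLHE40 by 0.41 (6.66e-06). COL1A1, named after its values were seen since it makes up most of the fibroblast marker sum, is on this list as well, and its log2 fold change was 1.47 (edgeR adjusted p = 1.04e-08).

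Of 15 BMP target genes 12 were tested, 7 were higher and 1 lower, 66.7% called, with a median of 1.01. ID4, a further paralog of ID1 and ID3, was at 15.6, 15.1 and 15.2 CPM in parental and at 83.4, 83.2 and 77.5 CPM in persister libraries, a log2 change of 2.41 (SE 0.05004, edgeR adjusted p = 4.51e-11). ID2, named after its values were seen to complete the paralogs, had 9, 7 and 4 counts in parental and 25, 39 and 20 in persister libraries, a log2 change of 2.16 (edgeR adjusted p = 0.000596). Of the 4 ID genes, ID1 alone was lower. HES1, a target of Notch as well as of BMP, fell by 1.06 (edgeR adjusted p = 8.15e-09), from 57.4 ± 2.08 to 27.5 ± 0.145 CPM (SD, n = 3 each).

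**Figure D5:**
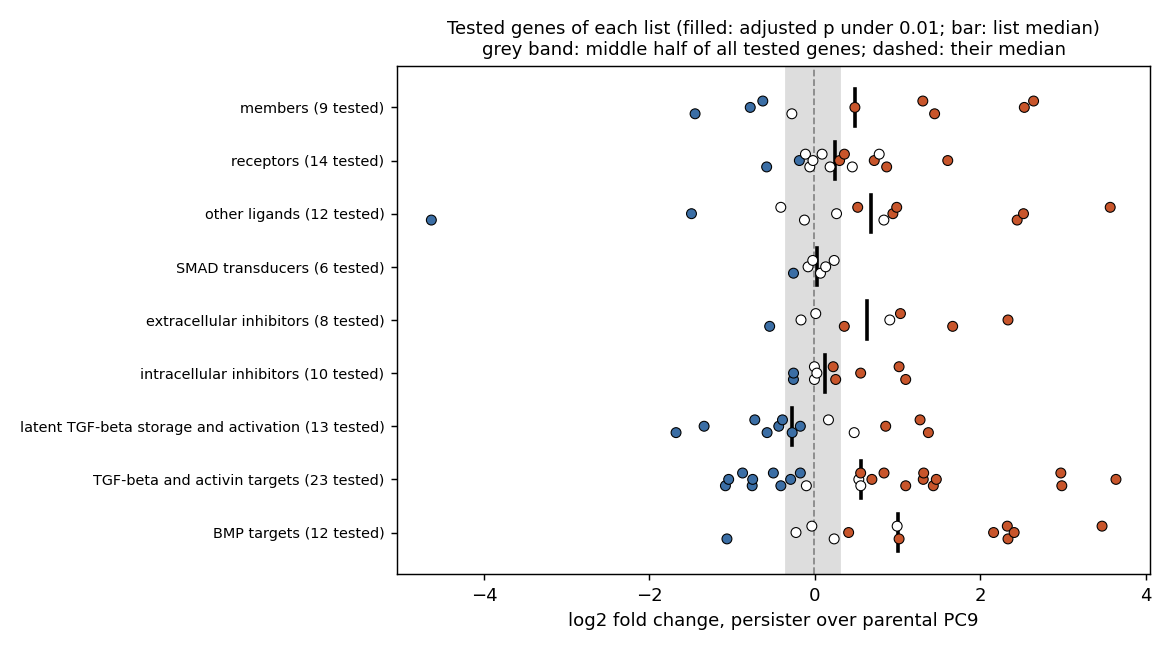
Log2 fold change of persister over parental PC9 for the tested genes of each list, 1 point per gene, orange where called higher, blue where called lower and white where not called, with a black bar for the list median, a grey band from -0.35 to 0.30 for the middle 50% of all genes tested and a dashed line at their median. SMAD transducers lie within the band, while targets and ligands spread to both sides of it.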

How the data were processed

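The authors made poly-A libraries from total RNA, sequenced them in paired ends and assigned reads to Ensembl transcripts of GRCh38 with kallisto 0.46.1. The deposited values are estimated counts per gene symbol and per transcript, in whole numbers and not normalized. Groups and replicate numbers came from the sample labels, the dose from the study's methods and the culture numbers from one of its figure legends. The members and lists were chosen with earlier results of these data known.

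The test was edgeR 4.0.16 in R 4.3.3 with filterByExpr, TMM, glmQLFit and glmQLFTest (persister against parental), Benjamini-Hochberg adjustment over all genes or transcripts tested and a limit of 0.01. Values in parentheses after a log2 change are edgeR adjusted p-values. The standard error is the size of the log2 fold change divided by the square root of F. Of 188753 transcripts 167067 matched GENCODE 44 (GRCh38), with 95.8% of the counts, which gave TGFB1 and all coordinates. The gene table was expected to hold TGFB1. Named list genes are up to 3 higher and 3 lower per list with the smallest p-values and a mean of at least 1 CPM, unless said otherwise, and 1 gene that this rule selects is not reported here. The spread between replicates sets the precision of means, and p-values measure that spread only. The method was tested on simulated data in which far fewer genes changed than were called here. That test thus does not give the error rates for this contrast. Alternatives were DESeq2 1.42.0, limma 3.58.1 (voom), glmTreat, other normalizations, filters and limits, a replicate block, leaving out each library, gene counts built from the transcript table and, chosen after seeing the data, the clone-name row for TGFB1. Figures were drawn with matplotlib 3.10.9.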

Additional observations from a re-analysis of the deposited data

How the results depend on the processing

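Over 168 recalculations of the 10 members' log2 fold changes, 159 kept direction and call, 9 kept direction but lost the call, and 0 reversed. Of 561 for the named list genes, 550 kept both, 11 lost the call and 0 reversed. Of 180 counts, 165 stayed within 1.5 times the main count. A test against a fold change of 1.5 (glmTreat) called 1969 genes of all tested (13.5%) and 5 members (TGFB2, INHBA, SMAD7, ID3 and ID1). It called 2 of 14 receptors tested, 0 of 6 SMAD transducers, 3 of 8 extracellular and 2 of 10 intracellular inhibitors. Of the latent TGF-beta genes it called 4 of 13, and of the TGF-beta and activin targets 12 of 23. TGFB1 (-0.41), INHBB (0.48), BMP4 (-0.63) and FST (-1.45) were then not called. With DESeq2 the FST log2 fold change was -1.47 (adjusted p = 0.0124), and with one library left out in turn it ran from -1.80 to -1.28. The limit of 0.05 gave 3 SMAD transducers, and leaving out one library gave 1 to 2. Transcripts of members called numbered 13, and 6 to 11 with one library left out, 6 of them without parental library 3. The stricter filter left FST and TGFB3 untested. Parental and persister libraries share replicate numbers, but deviations of same-numbered libraries correlated at 0.187, 0.0357 and 0.0385, so the numbers were not taken as pairs. With a replicate block 8671 genes, 8 members and 5 transcripts of members were called. No normalization moved the median of all genes by more than 0.059 on the log2 scale. FST and TGFB3 had at most 40 counts per library, and the part of depth in their calls was not tested.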

Other observations

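Of the 27 other ligand genes of the family 12 passed the filter and were tested. Of these 6 were higher and 2 lower, 66.7% called against 56.8% of all genes, with a median log2 fold change of 0.68. BMP6, a BMP ligand gene, had 12, 15 and 14 counts in parental libraries and 151, 143 and 162 in persister libraries, a log2 fold change of 3.57 (SE 0.168, edgeR adjusted p = 1.58e-08). BMP3, whose product opposes other BMPs, fell by 4.64 on the log2 scale, from 2.45 ± 0.468 to 0.0970 ± 0.0650 CPM (SD, n = 3 each, edgeR adjusted p = 7.83e-07). INHBE, another activin subunit gene, and GDF15, a stress-induced member of the family, rose by 2.52 (1.08e-05) and 0.94 (8.71e-06).

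Of 15 genes for the storage and activation of latent TGF-beta 13 were tested. Of these 3 were higher and 8 lower, 84.6% called against 56.8% of all genes, with a median log2 fold change of -0.27. THBS1, encoding the activator thrombospondin-1, rose from 488 ± 7.64 to 1264 ± 14.8 CPM (SD, n = 3 each, log2 fold change 1.37, edgeR adjusted p = 1.08e-10), and ITGAV, the alpha subunit of the integrins that activate latent TGF-beta, rose by 1.27 (5.54e-09). The latent binding protein genes divided: LTBP1 rose by 0.86 (edgeR adjusted p = 1.22e-07), while LTBP3 fell by 1.34 (5.32e-09) and LTBP4 by 0.58 (4.88e-05). ITGB5, an integrin beta subunit gene, fell by 0.44 (1.41e-05). The other beta subunit genes on the list, named after their values were seen, did not rise with ITGAV by a call. ITGB6 was lower, with a log2 change of -0.39 (edgeR adjusted p = 0.000363). ITGB3 and ITGB8 were not called, with log2 changes of 0.48 (0.057) and 0.16 (0.123).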
